A study of Mus musculus with 8 samples.

Results

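The cells described here are the β-cells that carry cluster number 0 in the authors' annotation, chosen by that cell type name and cluster number alone. They number 1325 of the 6959 deposited cells, and 1325 of the 2412 cells annotated as β-cells, which fall into clusters 0, 1 and 10. Of these cells 650 came from vehicle-treated and 675 from FAKi-treated mice. Wild-type mice received vehicle or the focal adhesion kinase (FAK) inhibitor PF562271, called FAKi, at 50 mg/kg given 2 times daily over 3 weeks, with islets collected 10 days after the last dose. About 1200 handpicked islets of 5 mice were pooled for each condition and sequenced as 1 droplet-based library, whose 4 sequencing lanes make up the 8 samples of the series. There is therefore 1 library per condition, no replicate and no test, and differences are given as ratios with intervals that cover counting error only and say nothing of the spread between mice. The study's methods give an age of 6 to 12 weeks at the start for its mice, with the use of both sexes unless stated otherwise. The reporting summary gives another range that reaches older ages, and neither gives age or sex separately for the pooled mice.

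β-cells make and secrete insulin in response to glucose. Glucose enters through the transporter GLUT2, is metabolised and raises the ATP level, which closes potassium channels, opens calcium channels and releases insulin granules. Incretin and prolactin receptors tune this response, and the transcription factors PDX1, NKX6-1 and MAFA hold the cell's identity. FAK is a kinase of the integrin adhesions by which cells hold on to their matrix, and islets lie in contact with acinar tissue, the enzyme-making part of the pancreas. The comparison of FAKi with vehicle within the cluster asks how the RNA content of these β-cells differed after treatment.

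UMIs (unique molecular identifiers, each 1 counted RNA molecule end) were summed over the cells of the cluster in each library and scaled to a total of 1000000 (CPM). They come from RNA 3′ ends and are not corrected for gene length. The sums were 22649403 UMIs for vehicle and 24366530 for FAKi. The median cell held 34677 UMIs in vehicle and 34237 in FAKi, with 4546.5 and 4466 detected genes and 4.08% and 3.85% mitochondrial counts. The vehicle cells had the longer tail of shallow cells, with a 10th percentile of 17081 UMIs against 25315. No barcode was shared between the libraries within the cluster, against 4 among all cells, and scrublet, a doublet caller that marked 1.80% of vehicle and 1.79% of all FAKi cells, marked none of these. *Xist*, the RNA of the inactive X chromosome, stood at 638 and 647 CPM, and *Kdm5d*, a Y-linked gene, had 0 UMIs in these cells. An *Xist* UMI without a Y-linked UMI was found in 647 of 650 vehicle and 674 of 675 FAKi cells.

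The label held against its markers. *Ins2*, 1 of the 2 mouse insulin genes, made up 401354 and 408223 CPM in the vehicle and FAKi library. *Ins1*, the other, stood at 162182 and 159776 CPM. *Iapp*, the amyloid peptide stored with insulin, had 34879 and 40759 CPM. *Prlr*, the prolactin receptor, had 1012 and 684 CPM against 6.86 and 7.15 CPM in annotated α-cells. *G6pc2*, the islet glucose-6-phosphatase subunit, had 627 and 421 CPM against 7.12 and 11.6 CPM, and *Ucn3*, a peptide of mature β-cells, 259 and 212 CPM against 1.58 and 2.995 CPM. These last 3 markers were thus far higher than in α-cells in both libraries. *Ins2* lies at chr7:142678656-142679726, *Ins1* at chr19:52264297-52265015, *Iapp* at chr6:142298425-142303820, *Prlr* at chr15:10177238-10349190, *G6pc2* at chr2:69211073-69227993 and *Ucn3* at chr13:3940688-3945349, all protein-coding genes, by RefSeq on build GRCm38 (mm10). Reads of *Ins1* and *Ins2*, which are close copies, may be assigned to the wrong gene.

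The windows of 200 bases before the transcription start of *Ins1*, chr19:52264097-52264296 (plus strand), and of *Iapp*, chr6:142298225-142298424 (plus strand), are shown because these genes dominate the cluster's RNA. They come from RefSeq on GRCm38.p6, and capitals mark TAAT on either strand, the core of the A-box that PDX1 and other homeodomain factors read.
Ins1: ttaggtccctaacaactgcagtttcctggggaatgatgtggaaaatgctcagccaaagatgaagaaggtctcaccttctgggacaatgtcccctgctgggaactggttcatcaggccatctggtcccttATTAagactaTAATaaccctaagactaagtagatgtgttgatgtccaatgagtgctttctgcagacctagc
Iapp: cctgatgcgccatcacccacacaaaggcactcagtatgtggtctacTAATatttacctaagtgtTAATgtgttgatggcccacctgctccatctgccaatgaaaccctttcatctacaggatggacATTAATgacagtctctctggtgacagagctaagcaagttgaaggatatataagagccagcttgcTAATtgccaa
The *Ins1* window held 2 such matches and the *Iapp* window 5, overlapping ones counted. Of all 32851 RefSeq promoter windows of this length, 47.0% held at least 1 match, 23.5% at least 2 and 6.13% at least 4, so that a match by itself describes letters, not a bound site.

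The 3 hormone genes together took 59.8% of the cluster's UMIs in vehicle and 60.9% in FAKi, and the 20 most abundant genes 66.4% and 67.3%. The 20 also held *Malat1*, a nuclear noncoding RNA, at 8200.4 and 8452 CPM, and the granule proteins *Chga* at 4558 and 4445 CPM, *Scg2* at 1462 and 1677 CPM, *Chgb* at 1523 and 1105 CPM and *Scg5*, a chaperone of prohormone convertase 2, at 1173 and 1271 CPM. *Tpt1*, a tumour protein with a growth role, had 1471 and 1539 CPM, *Ubb*, ubiquitin, 1334 and 1339 CPM, and *Gm42418*, a predicted transcript, 2876 and 2604 CPM. Mitochondrial genes filled most of the remaining ranks, led by *mt-Atp6*, a subunit of ATP synthase, at 8774 and 9141 CPM, *mt-Co3* at 8208 and 7646 CPM, *mt-Co2* at 6659.7 and 6786 CPM and *mt-Co1* at 6426 and 5608 CPM. *mt-Cytb*, *mt-Nd4*, *mt-Nd2* and *mt-Nd1* followed with 5401, 2338, 2175 and 1927 CPM in the vehicle and 5224, 2459.9, 2118 and 1605 CPM in the FAKi library. The ratio of FAKi over vehicle lay between 0.726 (*Chgb*) and 1.17 (*Iapp*) for all of these but *Fos*, which ranked last of the 20 and is described with its gene group.

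Across the genome the 2 libraries of the cluster were alike. Of 8910 genes with at least 200 UMIs, 97.8% lay within 1.5-fold, on the scale of log2 of CPM + 1 that is used for every log2 value here. At least 1.5-fold higher in FAKi were 61 genes (0.685%) and at least 1.5-fold lower 139 (1.56%), and the median log2 ratio of all 8910 was -0.03, with 90% of genes between -0.40 and 0.29. The quartiles of all 8910 were -0.17 and 0.09, so that most genes lay below 0, as a background for list members below 0. The shares past 1.5-fold are the background against which the counts of each gene list past that fold are read. They changed with subtraction of a class mean. Of 8308 genes 350 were higher and 391 lower after the lowest class mean per droplet was taken off each cell. Of 7248 genes 420 were higher and 156 lower after the endothelial mean was taken off. The cells were assigned to clusters by the same expression values, and how far the clustering drew the libraries together was not tested. A count past 1.5-fold describes these libraries and is no test. The pseudocount draws low genes toward 0, so that a low gene whose ratio of CPM is just past 1.5-fold, such as *Gabbr2* or *Pxn*, is not counted.

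**Figure D1:**
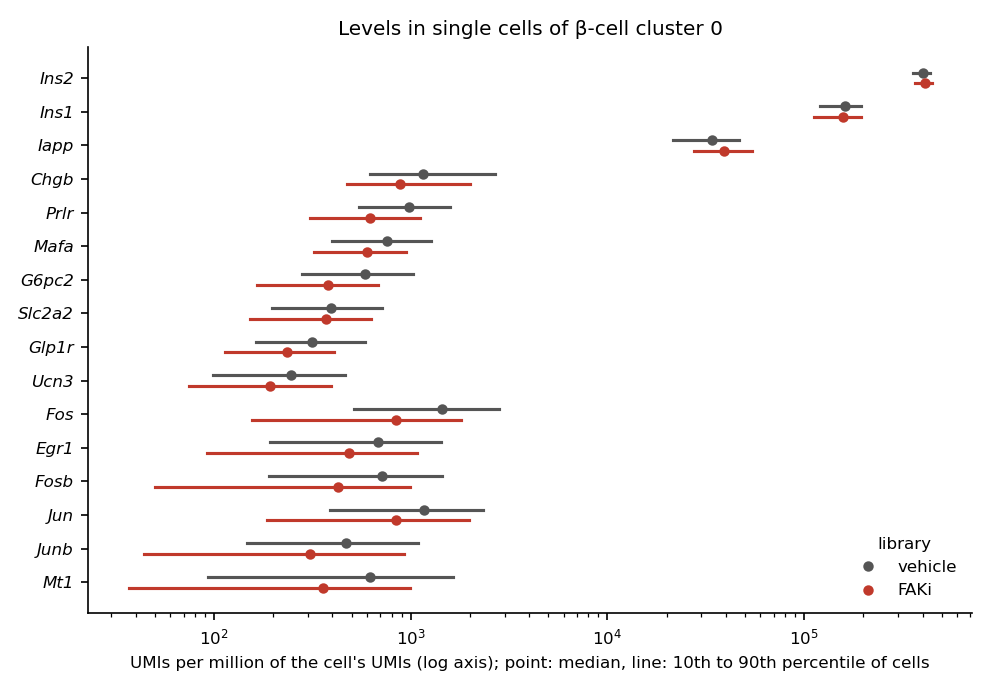
Levels of 16 genes in the single cells of β-cell cluster 0 (650 vehicle cells in grey, 675 FAKi cells in red), as CPM of each cell's own UMIs on a log axis. Points are medians and lines run from the 10th to the 90th percentile of cells, which overlap for every gene shown, with the FAKi median above the vehicle median for *Ins2* and *Iapp* and below it for the other 14.

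The hormone genes differed little. The ratio of FAKi over vehicle was 1.017 (1.016 to 1.018) for *Ins2*, 0.985 (0.984 to 0.987) for *Ins1* and 1.169 (1.165 to 1.172) for *Iapp*, with the 95% interval in parentheses, as for every ratio here. The median cell had 34117 CPM of *Iapp* in the vehicle and 39284 in FAKi, and the middle 80% of cells ran from 21490.2 to 46682 and from 27612 to 54332 CPM. The *Iapp* log2 ratio was also above 0 in clusters 1 (0.14) and 10 (0.25), and in α-cells (0.23) and endothelial cells (0.82). A cell of the cluster held 1215 and 1471 *Iapp* UMIs on average, against 1.82 and 6.89 per droplet in the lowest of the endothelial and immune classes. With the lowest class mean taken off each cell the *Iapp* log2 ratio was 0.20.

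None of the 18 measured β-cell transcription factors, of 19 listed, was past 1.5-fold in either direction. Their median log2 ratio was -0.11 and 14 of 18 lay below 0. *Mafa*, the factor that marks mature β-cells, had 775 and 620.4 CPM, a ratio of 0.800 (0.783 to 0.818). *Nkx2-2*, a factor needed for β-cell identity, had 74.5 and 58.8 CPM (ratio 0.789, 0.734 to 0.847), and *Nkx6-1* 325 and 277 CPM (ratio 0.852, 0.824 to 0.881). *Pdx1*, the master regulator of pancreas and β-cell, was nearer to 1 at 147 and 139 CPM (ratio 0.943, 0.899 to 0.990). On the other side, *Isl1*, a LIM homeodomain factor of all islet cells, had 68.8 and 83.2 CPM (ratio 1.21, 1.13 to 1.29), and *Neurod1* 180.2 and 194 CPM (ratio 1.08, 1.03 to 1.13).

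Genes of glucose sensing and metabolism had 0 of 14 measured members past 1.5-fold, a median of -0.11 and 12 of 14 below 0. *G6pc2* came closest to the limit, with a ratio of 0.672 (0.655 to 0.689), and its median cell had 587 CPM in vehicle and 378 CPM in FAKi. *Slc2a2*, which encodes GLUT2, had 414 and 377 CPM (ratio 0.911, 0.885 to 0.938). Among 12 measured ion channel genes 0 were past 1.5-fold upward and 1 downward, with a median log2 ratio of -0.02. *Kcnk16*, the islet potassium leak channel TALK-1, had 46.9 and 32.8 CPM (ratio 0.700, 0.637 to 0.767), and the subunits of the ATP-sensitive potassium channel, *Kcnj11* and *Abcc8*, had ratios of 0.790 (0.699 to 0.892) and 0.878 (0.845 to 0.913). The L-type calcium channel *Cacna1d* stood at 49.8 and 56.7 CPM (ratio 1.14, 1.05 to 1.23).

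All 16 genes of prohormone processing and granules were within 1.5-fold, with a median of -0.05. The largest difference was in *Chgb*, chromogranin B, with a ratio of 0.726 (0.714 to 0.737), while *Chga*, chromogranin A, was at 0.975 (0.967 to 0.984). *Scg2* and *Slc30a8*, the zinc transporter of the insulin granule, were slightly higher in FAKi, with ratios of 1.15 (1.13 to 1.16) and 1.09 (1.06 to 1.12). The convertases that cut proinsulin, *Pcsk1* and *Pcsk2*, were at 0.899 (0.868 to 0.932) and 0.889 (0.874 to 0.904). The 10 measured exocytosis genes were also all within 1.5-fold, from -0.25 (*Syt7*, a calcium sensor of fusion) to 0.05 (*Unc13a*, a vesicle priming factor) on the log2 scale.

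Of 17 measured receptors and secreted signals, 1 was past 1.5-fold upward and 0 downward. The 1 was *Nnat*, a protein of the endoplasmic reticulum and neither a receptor nor a secreted signal, which is described with the highest genes. *Prlr* had a ratio of 0.676 (0.663 to 0.690), and its median cell had 981 CPM in the vehicle library and 620.1 in FAKi. *Glp1r*, the receptor of the incretin GLP-1, had 347 and 251 CPM (ratio 0.721, 0.697 to 0.746), and *Gabbr2*, a GABA-B receptor subunit, 18.1 and 12.0 CPM (ratio 0.662, 0.568 to 0.771). *Gipr*, the receptor of the other incretin, was at 1.00 (0.922 to 1.09) and *Ghr*, the growth hormone receptor, at 1.01 (0.946 to 1.07), so that the lower values did not extend to all receptors. *Prlr* and *G6pc2* had log2 ratios of -0.55 and -0.61 in cluster 1, and -0.51 and -0.68 in cluster 10, which come from other cells of the same 2 libraries.

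**Figure D2:**
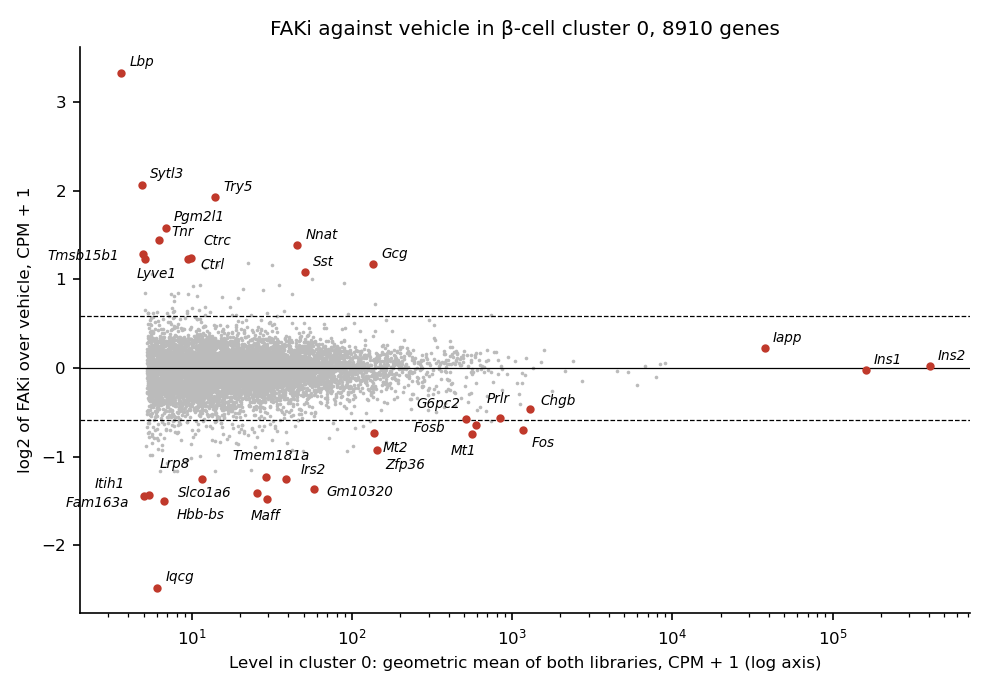
Log2 ratio of FAKi over vehicle in β-cell cluster 0 (y axis, CPM + 1) against level (x axis, geometric mean of both libraries, log scale), 1 point per gene for 8910 genes. Dashed lines mark 1.5-fold. The genes furthest from 0 lie under 100 CPM, and *Ins1* and *Ins2* lie near 0 at the right.

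The immediate early genes, which cells switch on within minutes of a stimulus or of handling, lay mostly on the lower side. Of 16 measured members of the list, which holds heat shock genes too, 4 were at least 1.5-fold lower and 0 higher, against 1.56% and 0.685% of all genes, and the median log2 ratio was -0.37 with 13 of 16 below 0. *Zfp36*, which speeds the decay of inflammatory mRNAs, had 195 and 102 CPM, a ratio of 0.524 (0.499 to 0.550). *Fos* had 1493 and 916 CPM (ratio 0.613, 0.603 to 0.624), and *Fosb*, its relative in the AP-1 factor, 745 and 475 CPM (ratio 0.638, 0.623 to 0.653). *Nr4a1*, an orphan nuclear receptor, had 24.7 and 15.4 CPM (ratio 0.624, 0.546 to 0.713). The median cell held 47 UMIs of *Fos* in vehicle and 27 in FAKi, and the middle 80% of cells ran from 514 to 2797 and from 157 to 1806 CPM, so the cells of the libraries overlapped widely. *Egr1*, *Jun* and *Junb* were lower by less, with ratios of 0.737 (0.720 to 0.754), 0.755 (0.742 to 0.768) and 0.787 (0.767 to 0.808). The heat shock genes of the list lay nearer to 1 or above it, with *Hspa1a* at 1.07 (1.04 to 1.10), *Hspa1b* at 1.18 (1.14 to 1.23) and *Hspa8* at 0.981 (0.958 to 1.00). When the mean level per endothelial droplet, which holds these cells' own RNA as well as free RNA, was taken off each cell, the log2 ratio of *Zfp36* turned to 4.81 and that of *Nr4a1* to 1.498, while *Fos* and *Fosb* kept their direction. The list's median was -0.11 under that subtraction and -0.68 with the lowest class mean taken off.

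The windows before *Fos*, chr12:85473690-85473889 (plus strand), *Junb*, chr8:84978749-84978948 (minus strand), and *Nr4a1*, chr15:101266646-101266845 (plus strand), are shown because these genes lay on the same side. The *Nr4a1* window precedes a RefSeq start that lies inside the gene's span of chr15:101253902-101274795, downstream of its first start. Capitals mark TGACG on either strand, the half-site of the cAMP response element.
Fos: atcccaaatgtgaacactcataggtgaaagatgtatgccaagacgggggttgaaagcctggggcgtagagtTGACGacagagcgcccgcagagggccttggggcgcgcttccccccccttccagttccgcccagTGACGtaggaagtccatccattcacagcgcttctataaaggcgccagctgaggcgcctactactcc
Junb: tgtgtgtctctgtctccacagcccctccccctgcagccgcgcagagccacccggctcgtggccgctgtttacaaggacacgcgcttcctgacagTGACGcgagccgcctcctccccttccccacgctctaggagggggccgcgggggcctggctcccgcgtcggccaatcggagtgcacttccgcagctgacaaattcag
Nr4a1: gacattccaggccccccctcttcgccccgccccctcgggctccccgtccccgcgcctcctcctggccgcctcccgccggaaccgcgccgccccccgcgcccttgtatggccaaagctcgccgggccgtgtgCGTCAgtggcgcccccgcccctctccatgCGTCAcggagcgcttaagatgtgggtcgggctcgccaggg
*Fos* and *Nr4a1* held 2 matches each and *Junb* 1, where 15.7% of the 32851 windows held at least 1 and 3.36% at least 2.

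The same list had a median log2 ratio of -0.39 in β-cell cluster 1, 0.12 in cluster 10, 0.35 in α-cells, 0.23 in δ-cells and -0.19 in endothelial cells. *Fos* had a log2 ratio of -0.71 in cluster 1, -0.12 in cluster 10 and 0.35 in α-cells. All classes of a condition come from 1 library, so that the handling of the islets and the treatment cannot be told apart here.

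Outside the list, *Maff*, a small MAF factor induced by stress, was among the 10 lowest genes, at 47.9 and 16.6 CPM (ratio 0.346, 0.308 to 0.388). *Irs2*, the adaptor that carries insulin and IGF signals in β-cells, was another, at 58.2 and 23.9 CPM (ratio 0.410, 0.372 to 0.453). After each cell was thinned to 10000 UMIs, which left out 10 shallower vehicle cells and 1 FAKi cell, an *Irs2* UMI was found in 37.0% (33.3 to 40.9) of vehicle and 18.2% (15.4 to 21.4) of FAKi cells, and a *Maff* UMI in 31.9% (28.3 to 35.6) of vehicle and 13.1% (10.6 to 15.8) of FAKi cells. *Irs2* had log2 ratios of -0.91 in cluster 1, -0.58 in cluster 10 and -0.22 in α-cells.

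The metallothioneins, small proteins that bind zinc and copper, were both lower. *Mt1* had 723 and 430.3 CPM (ratio 0.595, 0.581 to 0.610) and *Mt2* 176 and 105 CPM (ratio 0.597, 0.568 to 0.628). They were the 2 of 12 measured antioxidant and metallothionein genes past 1.5-fold, where the median was -0.10. In single cells the *Mt1* level spread widely, from 92.9 to 1641 CPM for the middle 80% of vehicle cells and from 36.8 to 996 CPM for FAKi. *Mt2* overlaps an antisense gene, *Gm45774*, and reads of the 2 cannot be told apart if strand was not kept. *Mt1* and *Mt2* are neighbours on chromosome 8, at chr8:94178883-94180327 and chr8:94172618-94173567. The window before *Mt2*, chr8:94172418-94172617 (plus strand), is shown because metallothionein promoters are known for metal response elements. Capitals mark the letters TGCNCNC on either strand, a looser pattern than the element's core, so that a match describes letters, not an element.
Mt2: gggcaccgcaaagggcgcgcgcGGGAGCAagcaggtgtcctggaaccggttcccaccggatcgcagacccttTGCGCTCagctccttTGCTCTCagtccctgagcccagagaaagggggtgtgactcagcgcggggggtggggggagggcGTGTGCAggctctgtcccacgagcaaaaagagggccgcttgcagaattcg
It held 4 matches, where 38.6% of the windows held at least 1 and 0.715% at least 4. The log2 ratios of *Mt1* and *Mt2* were -0.59 and -0.68 in cluster 1 and 0.15 and 0.33 in α-cells.

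The list of endoplasmic reticulum stress and folding genes had 1 of 19 measured members past 1.5-fold, *Atf3*, a stress-induced factor, at 93.0 and 60.2 CPM (ratio 0.648, 0.605 to 0.693), and a median of -0.05. The log2 ratio of *Atf3* turned to 1.35 when the lowest mean per droplet of the endothelial and immune classes was taken off each cell. *Hspa5*, the chaperone BiP, had 1212 and 986 CPM (ratio 0.813, 0.799 to 0.827), and *Ddit3*, the factor CHOP, 102 and 99.0 CPM (ratio 0.967, 0.913 to 1.02). Of 13 mitochondrially encoded genes *mt-Nd4l*, a complex I subunit, was at least 1.5-fold higher, at 75.8 and 116 CPM (ratio 1.53, 1.44 to 1.63), and the median was -0.04. The 22 nuclear genes of oxidative phosphorylation lay between -0.10 and 0.18 on the log2 scale, the narrowest range of the larger lists, with a median of 0.03. In cholesterol synthesis 1 of 14 genes was past 1.5-fold, *Dhcr7* at 9.18 and 5.50 CPM (ratio 0.599, 0.478 to 0.748).

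The antigen presentation genes among the 9 measured MHC class I and interferon genes lay mostly above 0, with none past 1.5-fold upward. *B2m*, the light chain of MHC class I, had 26.2 and 35.2 CPM (ratio 1.34, 1.21 to 1.496), *H2-K1* 78.3 and 97.8 CPM (ratio 1.25, 1.17 to 1.33) and *Psmb9*, a subunit of the immunoproteasome, 9.23 and 13.2 CPM (ratio 1.43, 1.20 to 1.71). *Irf1*, an interferon-responsive factor, was 1 of 9 past 1.5-fold downward, at 48.4 and 28.9 CPM (ratio 0.596, 0.541 to 0.655). The droplets of immune and endothelial cells held more *B2m* than these cells, at least 6.19 UMIs per droplet in each such class of the vehicle library against 0.912 per cell in the cluster.

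*Ptk2*, the gene of FAK, was low in the cluster and had 10.8 and 10.3 CPM (ratio 0.952, 0.795 to 1.14). The inhibitor acts on the kinase, so this RNA level does not check the treatment. Of the 15 measured genes of FAK and focal adhesion, 14 lay below 0, with a median log2 ratio of -0.19, beside -0.03 for all genes. Of these 15, 1 was past 1.5-fold, against 1.56% of all genes. It was *Itga6*, the laminin-binding integrin α6, at 24.3 and 14.3 CPM (ratio 0.588, 0.513 to 0.674). *Pxn*, paxillin, had 7.46 and 4.76 CPM (ratio 0.638, 0.499 to 0.813), *Bcar1*, the scaffold p130Cas, 41.1 and 32.7 CPM (ratio 0.795, 0.722 to 0.875) and *Itgb1*, integrin β1, 39.3 and 34.4 CPM (ratio 0.875, 0.796 to 0.963). The counts of this list were small, from 108 UMIs (*Src*) to 999 (*Itgav*) per gene in the vehicle library. Of the 10 YAP and TEAD targets and factors only *Tead1* and *Amotl2* reached 200 UMIs, with log2 ratios of -0.10 and 0.58.

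Growth genes passed the count minimum for 6 of 14 listed, with none past 1.5-fold. *Ccnd2*, the cyclin D that β-cells use most, had 827 and 791 CPM (ratio 0.957, 0.938 to 0.977), and *Ccnd1* 56.4 and 38.9 CPM (ratio 0.691, 0.634 to 0.752). *Mki67*, a marker of dividing cells, had 25 and 8 UMIs in all cells of the cluster, too few for a ratio. Of 20 genes of immature β-cells or disallowed in mature ones, 4 reached 200 UMIs and the other 16 had at most 93 UMIs in both libraries together. Of the 4, 2 were at least 1.5-fold higher and 0 lower, among them *Rbp4*, abundant in δ-cells, at 4.90 and 8.41 CPM (ratio 1.72, 1.36 to 2.18). The other 2 lay below 0, *Gpx3*, a secreted glutathione peroxidase, at 37.8 and 28.3 CPM (ratio 0.748, 0.676 to 0.828), and *Cd81*, a tetraspanin, at 15.3 and 15.1 CPM (ratio 0.991, 0.854 to 1.15). A *Rbp4* UMI was found in 4.22% (2.80 to 6.08) of vehicle and 7.12% (5.30 to 9.33) of FAKi cells at 10000 UMIs, and in 10.4% (6.19 to 16.2) and 17.9% (8.91 to 30.4) of the endothelial and immune cells. At 3000 UMIs the *Rbp4* shares were 1.54% (0.740 to 2.81) and 3.56% (2.29 to 5.24) in the cluster, and 1.75% (0.935 to 2.97) and 2.61% (1.06 to 5.31) in endothelial and immune cells, with overlapping intervals. *Neurog3*, the endocrine progenitor factor, had 0 and 1 UMIs, *Sox9* 3 and 3 UMIs, and *Aldh1a3*, a marker of dedifferentiated β-cells, 6 and 2 UMIs.

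**Figure D3:**
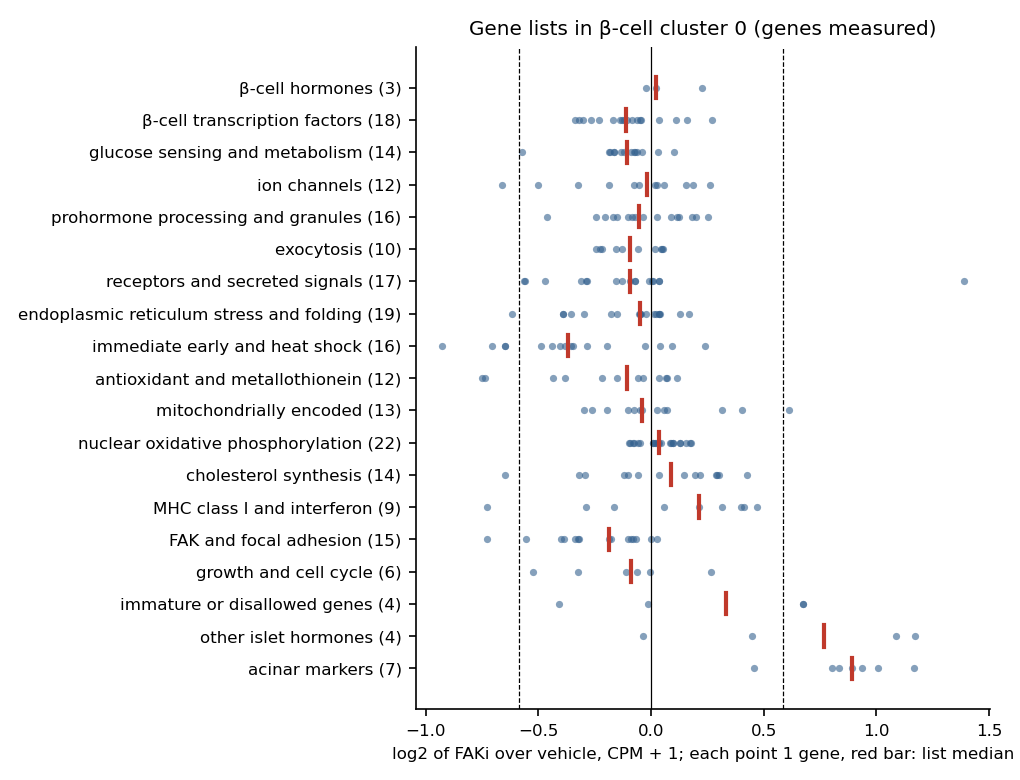
Log2 ratios of FAKi over vehicle (x axis, CPM + 1) for the measured genes of 19 lists in β-cell cluster 0, 1 point per gene, with the number of genes in parentheses and a red bar at each list's median. Dashed lines mark 1.5-fold. The immediate early genes lie mostly left of 0 (median -0.37) and the acinar markers right of it (median 0.89), with most other medians within 0.2 of 0.

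The 10 genes with the largest ratios were mostly of low abundance. *Lbp*, which encodes a secreted protein that binds bacterial lipopolysaccharide, had 3 and 254 UMIs, that is 0.132 and 10.4 CPM, a ratio of 78.7 (26.6 to 384). At 10000 UMIs a cell, a *Lbp* UMI was found in 0.312% (0.0379 to 1.12) of vehicle and 7.57% (5.69 to 9.83) of FAKi cells. *Lbp* had log2 ratios of 3.25 in cluster 1 and 1.81 in α-cells but -1.64 in endothelial cells. Of endothelial and immune cells, 20.9% (14.9 to 27.9) in vehicle and 5.36% (1.12 to 14.9) in FAKi had a *Lbp* UMI, the opposite order to the cluster. *Sytl3*, a Rab27-binding protein of vesicle traffic, had 1.37 and 8.95 CPM (ratio 6.54, 4.47 to 9.86), *Pgm2l1*, which makes glucose 1,6-bisphosphate, 2.96 and 10.9 CPM (ratio 3.68, 2.80 to 4.88), and *Tnr*, tenascin R, 2.78 and 9.28 CPM (ratio 3.33, 2.51 to 4.48). *Tmsb15b1*, a β-thymosin, had 2.16 and 6.73 CPM (ratio 3.11, 2.25 to 4.37) and *Lyve1*, a hyaluronan receptor of lymphatic vessels, 2.34 and 6.81 CPM (ratio 2.91, 2.13 to 4.05).

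*Nnat*, neuronatin, an imprinted gene whose protein in the endoplasmic reticulum aids insulin secretion, had the most counts of the 10, with 613 and 1765 UMIs or 27.1 and 72.4 CPM (ratio 2.68, 2.44 to 2.94). A *Nnat* UMI was present in 15.9% (13.2 to 19.0) of vehicle and 27.7% (24.4 to 31.3) of FAKi cells after thinning, against 4.29% (1.74 to 8.65) and 16.1% (7.62 to 28.3) of endothelial and immune cells. The 90th percentile of cells was 81.6 CPM in the vehicle library and 199 in FAKi, and the median cell had 0 in either. Its log2 ratio was 1.32 in cluster 1 and 1.92 in cluster 10, and -0.11 and 0.13 in α- and δ-cells. At 3000 UMIs, which kept more cells, the shares were 7.38% and 15.7% in the cluster against 0.404% and 1.49% of endothelial and immune cells. With the lowest class mean per droplet taken off, the *Nnat* log2 ratio was 1.37. *Nnat* lies on the opposite strand inside *Blcap*, whose reads cannot be told apart from it if strand was not kept. *Nnat* at chr2:157560078-157562525 and *Lbp* at chr2:158306493-158332852 lie 744 kb apart on chromosome 2.

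The remaining 3 of the 10 were pancreatic enzymes, *Try5*, a trypsin, at 6.09 and 26.0 CPM (ratio 4.26, 3.54 to 5.16), *Ctrc*, chymotrypsin C, at 5.39 and 14.1 CPM (ratio 2.62, 2.13 to 3.25), and the chymotrypsin-like gene *Ctrl* at 5.17 and 13.5 CPM (ratio 2.61, 2.11 to 3.26). *Ctrc* is annotated by RefSeq as a transcribed pseudogene. Trypsin genes are close copies, so that their reads may be split between them. They belong with the acinar markers, of which 6 of 7 measured were at least 1.5-fold higher, 0 lower, and the median log2 ratio was 0.89, or 1.73 in cells under 3% mitochondrial counts. *Prss2*, another trypsin, had 24.2 and 47.3 CPM (ratio 1.95, 1.76 to 2.16), *Ctrb1*, chymotrypsinogen, 38.8 and 78.9 CPM (ratio 2.03, 1.88 to 2.20) and *Pnlip*, pancreatic lipase, 19.96 and 46.0 CPM (ratio 2.31, 2.07 to 2.58). The summed level of the 8 listed markers was 162 CPM in vehicle and 308 CPM in FAKi. A droplet of the cluster held 0.845 and 1.71 *Prss2* UMIs on average, and a droplet of endothelial cells 3.80 and 5.28. The lowest of the endothelial and immune classes held 2.89 and 5.28. *Try5*, *Ctrc* and *Ctrl* were also lower per droplet in the cluster than in the lowest class, with *Try5* at 0.212 and 0.938 against 0.768 and 2.69. With the lowest class mean or the endothelial mean taken off each cell, no UMIs of the measured acinar markers were left in the cluster. The list's median was 0.64 in endothelial cells and 0.94 in ductal cells, -0.30 in β-cell cluster 1 and -0.50 in cluster 10. No cell of the cluster had 1% of its UMIs in acinar markers, 0 of 650 and 0 of 675, which allows shares of up to 0.462% and 0.444% at 3 counts, and of up to 0.566% and 0.545% by the 95% interval, while 11 vehicle and 51 FAKi cells had 0.1%. The part of free acinar RNA was not tested.

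*Gcg*, the glucagon gene of α-cells, stood at 88.8 and 201 CPM (ratio 2.27, 2.15 to 2.39) and *Sst*, the somatostatin gene of δ-cells, at 33.9 and 73.1 CPM (ratio 2.16, 1.98 to 2.35), 2 of the 4 measured hormones of other islet cells past 1.5-fold. *Ppy*, pancreatic polypeptide, had 57.5 and 79.0 CPM (ratio 1.37, 1.28 to 1.47) and *Pyy*, peptide YY, 32.7 and 31.9 CPM (ratio 0.976, 0.881 to 1.08). At 10000 UMIs, a *Gcg* UMI was found in 59.2% (55.3 to 63.1) of vehicle and 86.1% (83.2 to 88.6) of FAKi cells, and in 77.9% (70.8 to 84.0) and 92.9% (82.7 to 98.0) of endothelial and immune cells, which should lack it and of which 163 and 56 were deep enough. Cells of the cluster were the deeper, with the medians given above, against 5752 and 4836 UMIs in endothelial cells. For *Sst* the shares were 21.7% (18.6 to 25.1) of vehicle and 38.0% (34.3 to 41.8) of FAKi cells, and 25.8% (19.2 to 33.2) and 41.1% (28.1 to 55.0) in endothelial and immune cells. At 10000 UMIs the shares in the cluster lay below those in endothelial and immune cells. Thinning cuts the deeper cells by more, so that equal depth is not an equal amount of free RNA per droplet. The source of these counts was not tested. Per droplet, a cell of the cluster held 3.10 and 7.27 *Gcg* UMIs and 1.18 and 2.64 *Sst* UMIs, against 1.68 and 3.11 for *Gcg* and 0.315 and 0.444 for *Sst* in the lowest of the endothelial and immune classes. With that lowest mean taken off each cell, the log2 ratios were 1.47 for *Gcg* and 1.24 for *Sst*. *Sst* and *Gcg* per droplet did not move alike in endothelial cells, with *Gcg* at 5.48 and 30.2 UMIs and *Sst* at 6.90 and 0.848. *Irx2*, a transcription factor of α-cells, had 8 and 11 UMIs. No cell of the cluster reached 1% of its UMIs in any of the 4 hormones. The largest share in 1 cell was 0.67%, of *Sst*, in a FAKi cell.

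**Figure D4:**
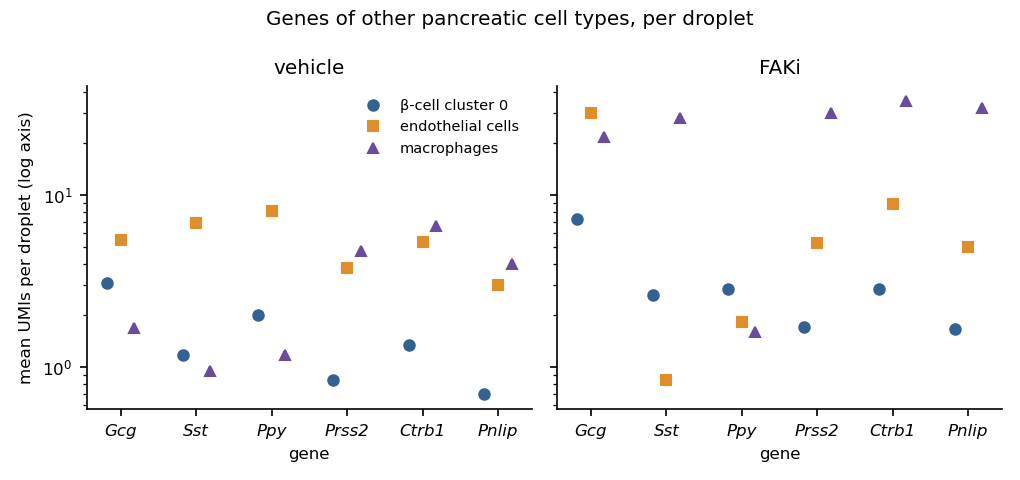
Mean UMIs per droplet (y axis, log scale) of 3 islet hormone genes and 3 acinar genes in β-cell cluster 0, endothelial cells and macrophages of each library. For the acinar genes, cluster 0 lies below both other classes in both libraries, and all 3 classes are higher in the FAKi library.

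Other cell types left few counts. *Pecam1*, *Cdh5*, *Plvap* and *Kdr* of endothelial cells had 1.10 and 1.07 CPM together, and the 4 stromal markers 2.38 and 1.48 CPM. *Cd79a* of B cells had 25.4 and 18.7 CPM while *Ms4a1*, of the same cells, had 1 and 1 UMIs. *C1qa* of macrophages had 22.8 and 21.5 CPM while *Adgre1* had 1 and 0 UMIs. *Hbb-bs*, the β-globin of red cells, was among the 10 lowest genes at 10.3 and 2.996 CPM (ratio 0.291, 0.221 to 0.380), and its log2 ratio ranged from -6.18 to 4.78 over the other classes.

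Among the 10 lowest genes *Iqcg*, which encodes a protein of cilia and flagella, had the lowest ratio, with 301 and 38 UMIs or 13.3 and 1.56 CPM (ratio 0.117, 0.0814 to 0.165). *Iqcg*, at chr16:33014270-33057145, was lower in all 5 other classes with at least 50 UMIs, with log2 ratios from -2.69 to -0.45. *Gm10320*, annotated as a pseudogene at chr13:98489533-98489841, had 92.4 and 35.1 CPM (ratio 0.380, 0.350 to 0.412) and was lower in all 8 other classes, each by at least 1.5-fold, and *Tmem181a*, a membrane protein gene, had 43.4 and 17.98 CPM (ratio 0.414, 0.369 to 0.464) and was lower by at least 1.5-fold in all 6 classes that could be compared. The lower values of these 3 genes thus ran across the islet. *Tmem181a* at chr17:6256726-6308314 and *Sytl3*, one of the highest genes, at chr17:6658133-6738070 lie 350 kb apart on chromosome 17. *Gm10320* and *Tmem181a* have near copies in the genome, so that their reads may be split.

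The last 4 of the 10 lowest encode membrane or secreted proteins. *Slco1a6*, an organic anion transporter, had 40.8 and 14.7 CPM (ratio 0.360, 0.317 to 0.407), *Lrp8*, the apolipoprotein E receptor 2, 16.7 and 6.44 CPM (ratio 0.385, 0.318 to 0.465), *Itih1*, an inter-α-trypsin inhibitor chain, 7.33 and 2.05 CPM (ratio 0.280, 0.1999 to 0.386) and *Fam163a*, a membrane protein of the nervous system, 7.90 and 2.30 CPM (ratio 0.291, 0.211 to 0.395). A *Slco1a6* UMI was found in 32.0% (28.4 to 35.8) of vehicle and 13.5% (11.0 to 16.3) of FAKi cells after thinning. *Slco1a6* and *Lrp8* were also lower in clusters 1 and 10, with log2 ratios of -1.46 and -0.97 for *Slco1a6* and -0.56 and -0.92 for *Lrp8*.

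**Figure D5:**
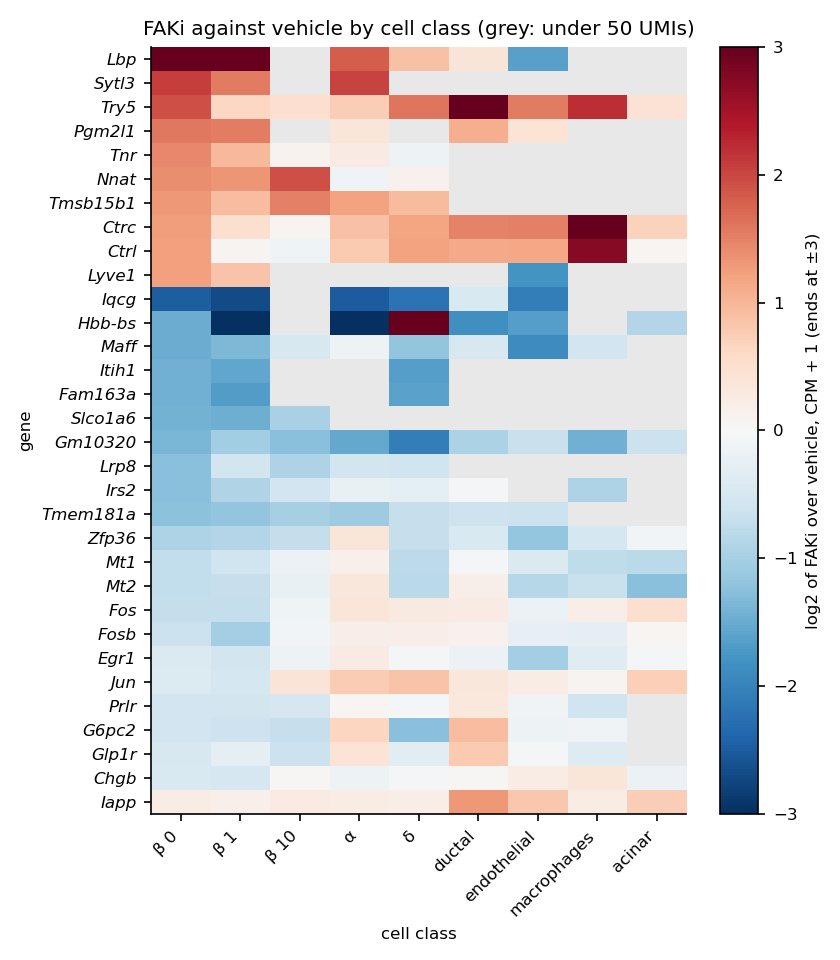
Log2 ratio of FAKi over vehicle (CPM + 1, colour scale ending at ±3) for 32 genes, rows, in β-cell clusters 0, 1 and 10 and 6 other annotated classes, columns. Grey marks fewer than 50 UMIs. *Iqcg*, *Gm10320* and *Tmem181a* are blue in every class measured, while *Prlr* is lower in the 3 β-cell clusters and near 0 in α-cells.

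The cells of the cluster were uneven for a minority of genes. Beyond counting error, the coefficient of variation (CV) between cells had a median of 25.8% in vehicle and 26.5% in FAKi over 2563 genes with at least 1 UMI per cell in each. *Ins1* had a CV of 17.0% and 19.6% and *Iapp* of 27.9% and 29.3% in the vehicle and FAKi library, and *Fos* of 50.7% and 66.6%. *Npy*, neuropeptide Y, had the largest spread by the smaller of both libraries' values, the measure by which these 10 genes were ranked, with a CV of 389.8% and 322%, and a UMI of it was present in 19.8% of vehicle and 19.0% of FAKi cells. Its level hardly differed between the libraries, with 95.9 and 89.9 CPM (ratio 0.937, 0.883 to 0.995). *Car15*, a carbonic anhydrase, followed with 258% and 326%. *Klf2*, *Klf6* and *Id2*, regulators of transcription that respond to stimuli, had 249.5% and 289%, 179.8% and 171% and 183% and 167%, and *Nupr1*, a stress-induced chromatin protein, 234% and 269.9%. *Cryba2*, a crystallin of endocrine cells, had 214% and 182%, *Rgs4*, a brake on G-protein signals, 179% and 192% and *Snhg11*, a noncoding RNA, 177% and 224%. *Sst* completed the 10, with 211% and 438%, and the FAKi value holds the cell with 0.67% of its UMIs in *Sst*. In contrast, *Gcg* had a CV of 36.0% and 44.96%, near the value of *Prlr*, 35.2% and 44.3%.

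Cluster 0 was then set against β-cell cluster 1. The clusters were drawn on the same expression values, so these ratios describe them and test nothing. Of 9602 genes, 2 were at least 2-fold higher in cluster 0 in both libraries (0.0208%) and 34 lower (0.354%). The counts were 335 higher and 34 lower of 9045 genes when the lowest class mean per droplet was taken off each cell. They were 958 and 33 of 7862 with the endothelial mean, and the cause was not tested. *Colec12*, a scavenger receptor, had log2 ratios of cluster 0 over cluster 1 of 1.04 in vehicle and 1.99 in FAKi cells, and *Tsix*, the antisense partner of *Xist*, of 1.17 in vehicle and 1.34 in FAKi cells. Whether the counting kept the strands of *Tsix* and *Xist* apart is not given in the sources used here. *Hcar2*, *Malat1*, *mt-Nd6* and the predicted genes *Gm48027*, *Gm42937* and *Gm42941* made up the other highest genes, with means over the libraries from 0.90 to 0.98. The red-cell genes *Hba-a1* and *Hbb-bs* had the lowest means of all listed genes, -7.82 and -7.60, with 1740.3 and 167 CPM of *Hba-a1* in cluster 1, but 1 cell held 21.5% and 18.1% of their UMIs. Among genes with no cell over 10% of the UMIs, the 8 lowest were all acinar enzyme genes, *Cela1*, *Try4*, *Cela3b*, *Cela2a*, *Cpa1*, *Ctrb1*, *Prss2* and *Try5*. *Prss2* stood at 24.2 and 47.3 CPM in cluster 0 and 1265 and 1107 CPM in cluster 1. Cluster 1 was also the shallower, with a median of 20070 UMIs per vehicle cell and 16908 per FAKi cell. The β-cell transcription factors lay slightly higher in cluster 0, with medians of 0.20 in vehicle and 0.17 in FAKi, beside 0.09 and 0.07 for all genes, and no member of any β-cell list was 2-fold apart in both libraries.

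Against cluster 10, 23 of 9292 genes were at least 2-fold higher in cluster 0 in both libraries (0.248%) and 118 lower (1.27%). Taking off the endothelial mean gave 51 higher of 7703 genes, CPM without the hormone genes 86 higher of 9292, and thinning 59 lower of 5373. The summed levels of the 4 other islet hormones were far lower in cluster 0, with mean log2 ratios of -7.93 for *Pyy*, -7.62 for *Ppy*, -7.24 for *Sst* and -6.36 for *Gcg*, of which 1 cell held over 10% of the UMIs for all but *Sst*. A minority of cluster 10 cells carried these sums. At 1% of UMIs were 22 of 121 vehicle and 17 of 115 FAKi cells for *Gcg*, 14 and 17 for *Sst*, 14 and 13 for *Ppy*, and 13 in each library for *Pyy*, while the median cluster 10 droplet held 4 and 7 *Gcg* UMIs against 3 and 7 in cluster 0. Among genes with no such cell the lowest were *Sst*, at 33.9 and 73.1 CPM in cluster 0 against 7015 and 8457 CPM in cluster 10, and *Rbp4*, at 4.90 and 8.41 against 343 and 489.7 CPM. *Tspan8*, *Cd81*, *Gpx3*, *Try5* and *Calb1* were also among the 8 lowest. All 5 measured immature or disallowed genes were at least 2-fold lower in cluster 0 than in cluster 10 in both libraries. So were all 8 measured acinar markers, 2 of 2 α-cell markers and 2 of 2 δ-cell markers. *Angptl7*, a secreted angiopoietin-like protein, had 34.2 and 26.2 CPM in cluster 0 against 10.8 and 3.49 CPM. *Cox6a2*, the heart and muscle form of a cytochrome c oxidase subunit, had 131 and 115 against 38.9 and 31.4 CPM, and *Gad1*, which makes GABA, 32.4 and 30.5 against 9.07 and 8.87 CPM. *Arhgap36*, *Rprml*, *Gm44850*, *Slc14a2* and *4931431B13Rik* were the others among the 8 highest.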

How the data were processed

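Single-cell RNA-seq was performed on islets of vehicle- and FAKi-treated mice. The authors deposited a table of UMI counts per gene and cell, aligned to mm10, and a cell table with the cell type, cluster, total counts, detected genes and percent of mitochondrial counts for each barcode. The submitters' processing notes name Seurat 3.1. Every cell lay below 8.00% mitochondrial counts. The study's methods name a Chromium kit and CellRanger for the counts. Which aligner setting for strand was used is not given in the sources used here. The cell table's library name Control was read as vehicle, and the 4 lanes of a library count as 1 sample.

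The β-cells of cluster 0 were summed by library. Ratios of CPM, without a pseudocount, carry exact conditional binomial intervals and shares of cells Clopper-Pearson intervals, both at 95%, which cover counting error only. Log2 ratios used CPM + 1, and 1.5-fold (2-fold between clusters) was counted on that scale, over genes with at least 200 UMIs. Named were the 20 most abundant genes, the 10 highest and 10 lowest ratios with no cell over 10% of the UMIs and the mean of cells on the same side, the 8 highest and 8 lowest against clusters 1 and 10, the 10 genes of largest spread, and members of the gene lists. Members and lists were chosen with earlier results of these data known. Some members of the lists and ranks are not reported here. Alternatives covered scaling, count minimum, cells, depth and background. Analyses were tested on simulated data and used python 3.11.15, numpy 2.4.6, pandas 2.3.3, scipy 1.17.1 and, for scrublet, scanpy 1.11.5. Promoter windows came from RefSeq, where motifs were searched on both strands.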

Additional observations from a re-analysis of the deposited data

Results flagged for a closer look

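The immediate early and heat shock genes had a median log2 ratio of FAKi over vehicle of -0.37 in β-cell cluster 0, but of 0.35 in α-cells and 0.23 in δ-cells. *Fos* lay on the lower side in cluster 0 and on the higher side in both other types. These medians have opposite signs in the same libraries. With 1 library per condition the difference between the cell types was not tested.

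The acinar markers had a median of 0.89 in cluster 0, against -0.30 in β-cell cluster 1 and -0.50 in cluster 10. The signs were opposite within the annotated β-cells, and cluster 1 held far more acinar RNA than cluster 0 in both libraries. With the lowest class mean or the endothelial mean per droplet taken off, no UMIs of the measured markers were left in cluster 0. The difference between the clusters was not tested either.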

How the results depend on the processing

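With 1 library per condition the spread between mice is not measured, and the intervals cover counting error only. Genes of few UMIs and genes abundant in free RNA are to be read with care, and the part of free RNA was not tested. Of 8910 genes, 61 were higher and 139 lower, 30.5% of calls being higher. With at least 50 UMIs there were 112 and 236 (11339 genes), with at least 1000 UMIs 17 and 43 (3558 genes), in cells under 3% mitochondrial counts 31 and 86 (122 and 170 cells), and after thinning to 10000 UMIs 24 and 88. These smaller sets tested fewer genes, 3997 and 4755 in the last 2. Shared with the main calls were 17 higher and 37 lower genes under 3% mitochondrial counts, and 18 and 51 after thinning. Taking off the lowest class mean per droplet gave 350 and 391 (47.2% higher, sharing 36 and 107 genes), and taking off the endothelial mean, chosen after seeing the data, 420 and 156 (72.9% higher, sharing 29 and 88). The causes were not tested. Mean of cells, scaling without the hormones or the 20 most abundant genes, and cells with an *Xist* UMI gave between 60 and 83 higher and between 136 and 160 lower. No cell was lost without doublets or other hormones, so those counts were identical.

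The acinar median was 1.73 under 3% mitochondrial counts and 0.69 with a pseudocount of 10 CPM. Neither background subtraction gave a value for it, because no UMIs of the measured markers were left in either library. The immediate early median was -0.68 with the lowest class and -0.11 with the endothelial mean taken off. Of 42 called genes with 398 alternative values, 4 values reversed: *Atf3* at 1.35 (lowest class) and 3.25, *Nr4a1* at 1.498 and *Zfp36* at 4.81 (endothelial mean). Genes higher than in cluster 1 numbered 335 of 9045 with the lowest class and 958 of 7862 with the endothelial mean taken off. They numbered 1 of 6083 after thinning and 4 of 9602 without the hormones in the total. Against cluster 10, 59 of 5373 were lower after thinning, 86 of 9292 higher without the hormones and 51 of 7703 higher with the endothelial mean taken off. At their own depth 89.8% of vehicle and 99.6% of FAKi cells had a *Gcg* UMI, and 52.6% and 75.3% a *Sst* UMI. Thinned to 3000 UMIs, also chosen after seeing the data, *Gcg* gave 23.5% and 43.3%, and *Sst* 10.0% and 14.5%. At 0.1% of UMIs 4 vehicle and 6 FAKi cells held another hormone. Cells with a Y-linked UMI were not run, since *Kdm5d* had 0 UMIs. No paired analysis was possible because each condition is 1 library and lane numbers pair no samples.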
